A study of Arabidopsis thaliana with 12 samples.

Results

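The 41 histone genes described here were taken by gene identifier from the 32743 genes of the count tables, and they encode the linker histone H1, the core histones H2A, H2B, H3 and H4 and the variants of H2A and H3. By the kind of histone they make, 27 are replication-linked (8 H4, 5 H3.1, 4 canonical H2A and 10 H2B genes), 6 are replacement genes (3 H3.3 and 3 H2A.Z) and 8 are neither (2 H2A.X, 3 H2A.W and 3 H1). All 41 are nuclear, on chromosomes 1 to 5, and their spans in the tables are the same in the TAIR10.1 reference annotation. Their exons cover 522 to 1666 nt with a median of 842 nt, against a median of 1368.5 nt over nuclear genes, and 22 of them have a single exon.

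RNA was sequenced from Arabidopsis thaliana leaves (plants of 35 days), either wild type (WT, accession Col-0) or otp90, a single insertion line in OTP90 (AT1G25360), the gene of an organelle RNA editing protein with pentatricopeptide repeats. For each genotype there were 3 replicate libraries of an extract named Mito and 3 of an extract named Total, 12 in all. How the Mito extract was made is not given in the sources used here, so Mito and Total are names of libraries below. No agent was applied in any group.

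Nucleosomes are built from H2A, H2B, H3 and H4, and H1 binds the DNA between them. Replication-linked genes such as those of H3.1 and H4 are known for high expression in S phase, when new DNA has to be packaged, whereas replacement variants such as H3.3 and H2A.Z are made and deposited also outside S phase. In plants, unlike in animals, the mRNAs of replication-linked histones carry a poly(A) tail. In a full-grown leaf most cells no longer divide.

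Between 24660745 and 32418348 counts were obtained for Mito libraries and 49434596 to 60464017 for Total libraries. Nuclear genes held 46.9% to 52.7% of the counts of Mito libraries and 36.9% to 42.1% of those of Total libraries, and mitochondrial genes 2.89% to 5.16% and 0.96% to 1.19%. Leaf markers were abundant. CPM is counts in a library scaled to a fixed total, and for these markers TMM scaling, explained below, was applied as well. The summed level of 3 mesophyll markers (RBCS1A, RCA and LHCB1.3) was 14300 to 15500 CPM in Mito and 18600 to 26300 CPM in Total. The TMM factors were 1.1259 to 1.273 in Mito and 0.798 to 0.9828 in Total libraries, and this gap is given on that scale only. Neither 3 root hair nor 2 pollen markers summed to more than 0.0716 CPM. OTP90 had 6 to 20 counts in every library, with overlapping ranges in the 2 genotypes, so these counts do not check the insertion. WT Total replicate 2 had the highest chi-square statistics per degree of freedom against its group, 104.04 and 71.53. The other 2 libraries of that group were at 28.99 from each other. Lower statistics also set otp90 Total replicate 3 apart (56.53 and 66.42, beside 24.63) and WT Mito replicate 3 (37.64 and 33.71, beside 12.36). Calls that change without WT Total replicate 2 are given with and without it.

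The H3 genes differ by few codons, and the stretches that tell them apart are shown because H3.1 and H3.3 genes are set against each other below. The RefSeq proteins of the 5 H3.1 genes are identical, as are those of the 3 H3.3 genes, and the 2 forms differ at 4 of 136 residues, numbers 31, 41, 87 and 90 without the first methionine. The coding sequences are less alike, with 80.3% to 89.5% identity among H3.1 genes, 78.6% to 88.8% among H3.3 genes and 74.0% to 80.3% between them over 411 bases. The stretches below run from codon 29 to codon 45, counted from the start codon, in the TAIR10.1 reference, and the capitals mark the codons of residues 31 and 41; all lie on the minus strand. They are at chr5:3269341-3269391 (AT5G10390), chr5:26120375-26120425 (AT5G65360), chr4:18558015-18558065 (AT4G40040) and chr5:3472957-3473007 (AT5G10980).
AT5G10390 (H3.1): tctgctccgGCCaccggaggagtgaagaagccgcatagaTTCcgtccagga
AT5G65360 (H3.1): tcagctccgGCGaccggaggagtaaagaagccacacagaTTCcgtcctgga
AT4G40040 (H3.3): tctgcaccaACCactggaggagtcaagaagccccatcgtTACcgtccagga
AT5G10980 (H3.3): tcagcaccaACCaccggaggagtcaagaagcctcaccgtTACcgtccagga

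Reads were 75 bases long, and reads with several equally good positions had been counted at each. Of the 41 genes, 35 had no stretch of 75 exon bases that occurs elsewhere in the genome. The other 6 are H4 genes, which all encode 1 protein: AT1G07660 (18.3% of stretches), AT1G07820 (11.6%), AT3G45930 (18.7%), AT3G46320 (20.4%), AT5G59690 (3.1%) and AT5G59970 (2.5%), so the counts of these 6 are partly shared. The H3.1 gene AT3G27360 overlaps AT3G27380 on the same strand over 328 bases, which makes its count uncertain as well. HTA12 and the H2B gene AT5G02570 overlap on opposite strands, which the stranded counting keeps apart.

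The promoters of these genes were searched for letters known from plant histone promoters, in windows of 250 bases before to 50 after each RefSeq gene start, on both strands. The octamer CGCGGATC was in 10 of 41 histone windows and in 40 of all 27431 protein-coding windows (0.15%). These 10 were 3 of 5 H3.1, 2 of 8 H4 and 2 of 4 H2A genes, with 1 gene each of H3.3 (AT4G40040), H2A.W (HTA6) and H1 (AT1G06760). The hexamer ACGTCA was in 13 histone windows against 9.19% of all windows, and 9 of the 13 were H2B genes, of which there are 10. An E2F site (TTTCCCGC, TTTGGCGC, TTTGCCGC or TTTCGCGC) was in 3 histone windows against 1.76% of all windows, and the nonamer CATCCAACG was in none against 0.17%. No matches overlapped one another in a histone window, and 1 window (AT5G10400) held both octamer and hexamer. A match is a string of letters and was not tested as a binding site. The 3 upstream stretches below show the octamer in capitals in its 2 orientations, in an H3.1, an H4 and an H3.3 gene; they lie wholly before the gene start, at chr5:26120640-26120719 (minus strand), chr5:24051391-24051470 (plus strand) and chr4:18558946-18558974 (minus strand).
AT5G65360 (H3.1): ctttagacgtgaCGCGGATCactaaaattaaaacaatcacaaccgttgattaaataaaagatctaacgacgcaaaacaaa
AT5G59690 (H4): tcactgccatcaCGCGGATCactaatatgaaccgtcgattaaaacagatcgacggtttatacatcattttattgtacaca
AT4G40040 (H3.3): gtttatttcagcGATCCGCGacggtttgt

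All 41 genes together took 732.4 to 792.3 CPM in the Mito libraries, measured over all counts, and 553.3 to 713.7 CPM where the extract was Total. Measured over nuclear counts alone they took 1462.7 to 1611.2 CPM in Mito and 1462.4 to 1696.2 in Total, so the ranges overlapped once organelle RNA was set aside. Levels below are TMM-normalised CPM, TMM being a scaling that sets aside the genes that differ most between libraries, and levels of different genes are compared only per kilobase of exon.

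The 2 single genes with the highest level in these leaves encode replacement histone H3.3. AT4G40040 had a mean of 65.7 CPM per kb over the 12 libraries and AT4G40030 one of 49.6, and these neighbours on chromosome 4 together with AT5G10980 (35.7 CPM per kb) made up 3 of the 6 highest genes. The H2B genes HTB4, HTB9 and HTB11, with 44.1, 41 and 36.1 CPM per kb, were the other 3, followed by HTA9 (H2A.Z, 31.4), AT1G06760 (H1, 31) and AT5G59690 (H4, 30.1). The highest of the remaining classes were AT5G65360 (H3.1, 25.8), HTA10 (H2A, 18.4), HTA5 (H2A.X, 16.1) and HTA6 (H2A.W, 14.1). HTA9, AT1G06760 and AT5G59690 are close in this order and their ranges over libraries overlap. At the other end, AT3G09480 and AT5G02570 (both H2B) had 0.431 and 0.476 CPM per kb and HIS1-3, an H1 gene known to respond to drought, had 0.617. These 3 did not reach 1 CPM in 3 libraries of a comparison, and the other 38 were tested.

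**Figure D1:**
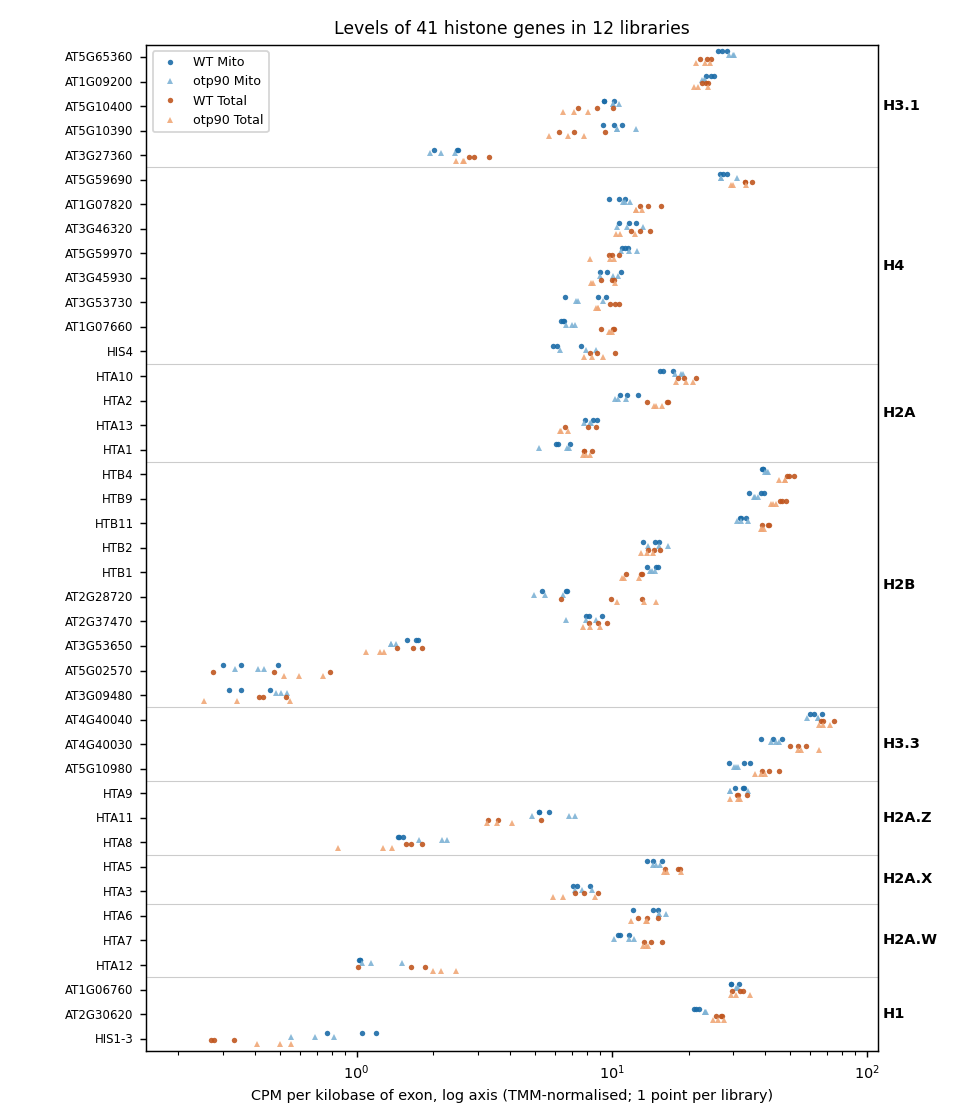
Each row is 1 of the 41 histone genes and each point 1 library, with the level in TMM-normalised CPM per kilobase of exon on a log axis and the genes grouped by histone class. The 3 H3.3 genes and the H2B genes HTB4, HTB9 and HTB11 lie farthest to the right, and AT3G09480, AT5G02570 and HIS1-3 lie below the others.

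Classes were summed per kilobase. H2B genes came to 155 ± 5.15 CPM per kb in WT Mito and 185 ± 3.93 in WT Total (SD, n = 3), and H3.3 to 138 ± 10.6 and 165 ± 5.11. H4 summed to 91.9 ± 4.80 and 110 ± 5.52 (SD, n = 3), H3.1 to 73.6 ± 3.00 and 66.0 ± 4.78, and H1 to 52.5 ± 1.82 and 58.1 ± 1.57. H3.1 was thus the class of these 5 whose mean was higher in Mito, although its 2 WT ranges overlapped (70.1 to 75.6 against 61.1 to 70.7). Of the other classes, H2A.Z also had the higher mean in WT Mito, at 38.8 ± 1.48 against 37.8 ± 2.63 (SD, n = 3). Its ranges overlapped as well. The means of canonical H2A, H2A.X and H2A.W were lower in WT Mito.

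No histone gene passed the test for a difference between otp90 and WT leaves in either extract. In edgeR's quasi-likelihood test, 0 of 38 members passed an adjusted p of 0.05 (Benjamini-Hochberg over all genes tested) for otp90 against WT in Mito, where 0.0604% of all genes did, and 0 of 38 in Total, where the percentage over all genes was 0. At an unadjusted p under 0.05 there were 2 members in Mito and 1 in Total, and DESeq2 called 0 in either. The median log2 ratio of the members was 0.03 in Mito, with a range of -0.29 to 0.47, and -0.10 in Total, with a range of -0.52 to 0.54. In Total 5 of 38 members had a ratio above 0, beside 7590 of 15373 of all genes and 2662 of 6044 other nuclear genes of at most 1666 nt. The members were measured in the same libraries, so their ratios are not independent, and this count was not tested.

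The smallest p in Mito belonged to HTA8 (AT2G38810, chromosome 2, 16219220 to 16220928), an H2A.Z gene, the variant found near transcription starts. It had 1.34, 1.3 and 1.28 CPM in WT Mito and 1.56, 1.92 and 2 CPM in otp90 Mito. The groups did not overlap, and the log2 ratio was 0.47 ± 0.158 (SE) with an adjusted p of 0.547 in edgeR. In Total the order was the opposite, with 1.59, 1.38 and 1.45 CPM in WT and 0.749, 1.12 and 1.22 in otp90, a log2 ratio of -0.52 ± 0.231 and an adjusted p of 1.0. For HTA8 the genotype effect in Mito less that in Total was 0.99 ± 0.270 on the log2 scale. Its unadjusted p was 0.00344 and its adjusted p 0.93 (edgeR, 12 libraries), so it did not pass. No member passed the interaction test, for which the percentage over all 16825 genes was 0 as well. HTA8 was the 1 member at an unadjusted p under 0.05 among the 38, and DESeq2 was not run for this term.

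HTA10, the most abundant canonical H2A gene, had 13.0, 14.6 and 13.3 CPM in WT Mito and 15.9, 15.7 and 14.8 in otp90 Mito, again without overlap, at a log2 ratio of 0.17 ± 0.0748 and an adjusted p of 0.700 (edgeR). In Total its groups overlapped, with 16.1, 18 and 15.2 CPM in WT and 15, 17.4 and 16.4 in otp90. The members with the smallest p in Total were AT3G53650, an H2B gene of low level, and the H4 gene AT3G53730. AT3G53650 had 1.59, 1.73 and 1.38 CPM in WT Total and 1.04, 1.22 and 1.18 in otp90 Total, and it was also lower in otp90 Mito (1.3, 1.3 and 1.36 CPM) than in WT Mito (1.63, 1.67 and 1.51). Its groups did not overlap in either extract, with log2 ratios of -0.45 ± 0.178 in Total and -0.29 ± 0.149 in Mito and adjusted p of 1.0 and 0.747 in edgeR. AT3G53730 had 12.1, 11.1 and 11.6 CPM in WT Total and 9.84, 10 and 10 in otp90 Total, and 10, 10.7 and 7.40 against 8.19, 10.5 and 8.38 CPM in Mito, where the groups overlapped.

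HIS1-3 (AT2G18050, chromosome 2, 7845923 to 7847031) had 1.02, 1.15 and 0.740 CPM in WT Mito, 0.665, 0.537 and 0.787 in otp90 Mito, 0.319, 0.268 and 0.261 in WT Total and 0.395, 0.485 and 0.537 in otp90 Total. It was thus highest in WT Mito and lowest in WT Total. As it was under the filter, it was tested in a fit without one, where otp90 against WT gave a log2 ratio of -0.58 ± 0.256 in Mito (adjusted p = 0.733, edgeR) and 0.74 ± 0.320 in Total (adjusted p = 0.974).

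Mito against Total is a comparison of 2 extracts, and a ratio sets a gene's share of one against its share of the other. Whether both came from the same plants is not given in the sources used here. Whether an extract held less RNA of a gene per cell or fewer cells of a type that expresses it cannot be told apart in bulk samples. In WT, 13 of 38 histone genes were lower in Mito, beside 20.9% of all genes tested, and 0 were higher, beside 22.8% (edgeR, adjusted p under 0.05). At an unadjusted p under 0.05 there were 18, and DESeq2 called 15. In otp90, 8 of 38 were lower, beside 22.3% of all genes, and 7 were higher, beside 24.8%, with 20 at an unadjusted p under 0.05 and 14 called by DESeq2. Of other tested nuclear genes of at most 1666 nt, 36.9% were lower and 7.95% higher in WT. In otp90 the shares of these short genes were 38.5% and 8.88%. The median log2 ratio of the members was -0.22 in WT and -0.10 in otp90, against 0.00 and 0.02 over all genes. The interaction passed for no member, so a difference between the 2 genotypes in these ratios was not shown.

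The WT calls depended on single libraries. Without WT Total replicate 2, 23 members were called, 21 lower and 2 higher, namely the same 13 and 10 others. Without WT Mito replicate 1, 2 or 3 the number fell to 1, 2 or 1, and without WT Total replicate 3 to 7. In otp90, 9, 8 and 9 members were called without otp90 Mito replicate 1, 2 or 3. AT4G40030, AT5G10980, HTB1, HTB9 and HTB11 each lost their otp90 call without any 1 of these 3 libraries (adjusted p from 0.0586 to 0.198, edgeR). The shares of all genes called in the fits without a library are not given here. Whether these changes in number are particular to the histone genes was not tested. Scaling matters as well: with library size alone the median of all genes moved on the log2 scale by 0.48 in WT and 0.46 in otp90, and the ratios of 24 tested members in WT and 18 in otp90 changed sign, so they are to be read relative to that shift. On that scale all 15 called members in WT, and 25 of 26 in otp90, were higher in Mito. The medians of all genes were then 0.48 and 0.47, so this direction is not particular to the histone genes. The share of all genes called on that scale is not given here.

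**Figure D2:**
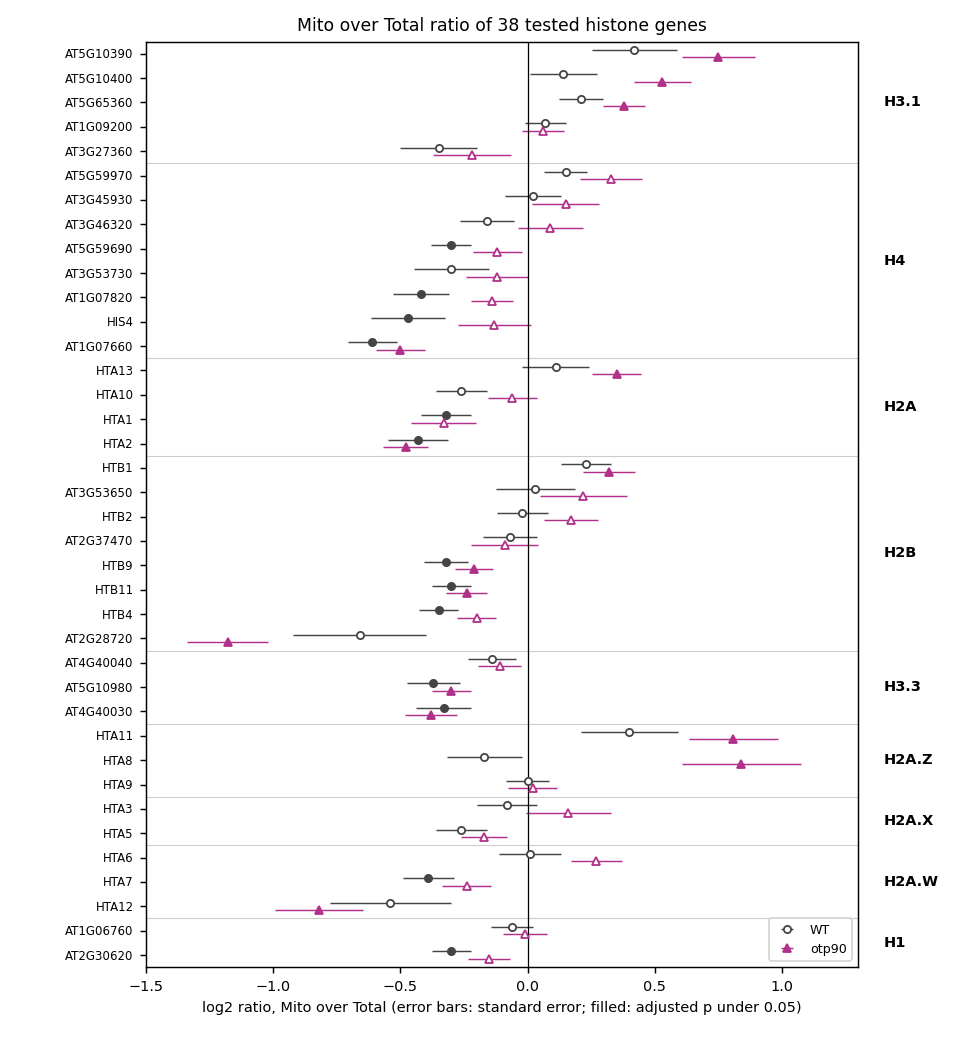
The log2 ratio of Mito over Total is drawn for each of the 38 tested histone genes by class, in WT (circles) and otp90 (triangles), with the standard error as a bar and filled symbols for an adjusted p under 0.05. In both genotypes 4 of the 5 H3.1 genes lie above 0 and all 3 H3.3 genes lie below 0, on the TMM scale (with library size alone all 3 were above 0).

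The medians of the H3 classes lay on opposite sides of 0 on the TMM scale, though not with library size alone. Of the 5 H3.1 genes, 4 had a ratio above 0 in either genotype, and 3 were called higher in otp90 and 0 in WT. Of the 3 H3.3 genes, 2 were called lower in both genotypes. Over all genes 22.8% were called higher and 20.9% lower in WT, and 24.8% and 22.3% in otp90. The medians of H3.1 and H3.3 were 0.14 and -0.33 in WT and 0.38 and -0.30 in otp90.

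AT5G10390 (chromosome 5, 3268847 to 3269594), an H3.1 gene, had 8.18, 7.63 and 6.94 CPM in WT Mito and 5.33, 7.02 and 4.66 in WT Total. In otp90 it had 7.81, 9.35 and 7.87 CPM in Mito and 5.06, 4.23 and 5.80 in Total. The otp90 groups did not overlap, and the WT groups overlapped through WT Total replicate 2. The log2 ratios were 0.42 ± 0.167 in WT (adjusted p = 0.0806, edgeR, and 0.55 with an adjusted p of 0.00355 without that library) and 0.75 ± 0.143 in otp90 (adjusted p = 0.00463).

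AT5G65360 (chromosome 5, 26119859 to 26120581), the most abundant H3.1 gene, had 19.5, 20.4 and 18.8 CPM in WT Mito, 20.8, 21.6 and 21.8 in otp90 Mito, 17.1, 17.7 and 16.1 in WT Total and 16.7, 15.5 and 17.6 in otp90 Total. Every Mito library was above every Total library. The log2 ratio was 0.21 ± 0.0850 in WT (adjusted p = 0.0850, edgeR) and 0.38 ± 0.0832 in otp90 (adjusted p = 0.00819). AT5G10400, which lies next to AT5G10390, was at 0.14 and 0.53, the latter with an adjusted p of 0.00737. AT1G09200 was at 0.07 and 0.06 and AT3G27360, whose exons overlap another gene, at -0.35 and -0.22, and none of these 4 values passed. Without WT Total replicate 2, AT3G27360 was called lower in WT, at -0.43 with an adjusted p of 0.0476 (edgeR).

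The H3.3 gene AT5G10980 (chromosome 5, 3472405 to 3473570) had 28.6, 26.9 and 23.6 CPM in WT Mito, 25, 25.5 and 24.6 in otp90 Mito, 31.7, 36.9 and 33.9 in WT Total and 32.5, 29.8 and 31.4 in otp90 Total. All Mito libraries were below all Total libraries, with log2 ratios of -0.37 ± 0.106 in WT (adjusted p = 0.0281, edgeR) and -0.30 ± 0.0759 in otp90 (adjusted p = 0.0146). AT4G40030 (chromosome 4, 18555532 to 18557106) had 61.7, 56.7 and 51.0 CPM in WT Mito, 55.8, 60.1 and 58.5 in otp90 Mito, 76.5, 66.1 and 71.3 in WT Total and 73.0, 85.7 and 71.3 in otp90 Total. Here too the extracts did not overlap, at log2 ratios of -0.33 ± 0.107 (adjusted p = 0.0425, edgeR) and -0.38 ± 0.104 (adjusted p = 0.0202). Its neighbour AT4G40040 had 101, 93.8 and 90.1 CPM in WT Mito against 112, 100 and 102 in WT Total, and 97.5, 87.9 and 96.7 against 102, 97.7 and 108 in otp90. The WT ranges of AT4G40040 overlapped and its ratios of -0.14 and -0.11 did not pass, the former becoming -0.23 with an adjusted p of 0.0413 (edgeR) without WT Total replicate 2. With library size alone as the scaling, all 3 H3.3 genes had ratios above 0 in both genotypes.

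The ratio of one class to the other does not depend on that scaling. Summed per kilobase, H3.1 over H3.3 was 0.506, 0.549 and 0.552 in WT Mito, 0.540, 0.579 and 0.552 in otp90 Mito, 0.387, 0.438 and 0.375 in WT Total and 0.378, 0.345 and 0.405 in otp90 Total. No Mito library overlapped a Total library in this ratio, which is given without a test, and the WT and otp90 libraries of an extract overlapped. H3.1 made up 34.9% ± 1.11 of H3 mRNA in WT Mito, 35.8% ± 0.833 in otp90 Mito, 28.5% ± 1.68 in WT Total and 27.3% ± 1.59 in otp90 Total (SD, n = 3). Reads across exon junctions can be lost from the H3.3 genes, which have several exons, but not from the single-exon H3.1 genes. The H3.1 share may therefore be overstated in every library. Canonical H2A over H2A.Z went the other way, at 1.10 ± 0.0628 in WT Mito and 1.12 ± 0.0938 in otp90 Mito against 1.35 ± 0.0653 and 1.38 ± 0.0940 in Total (SD, n = 3). All Mito libraries (1.03 to 1.22) were below all Total libraries (1.28 to 1.48) in this ratio.

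**Figure D3:**
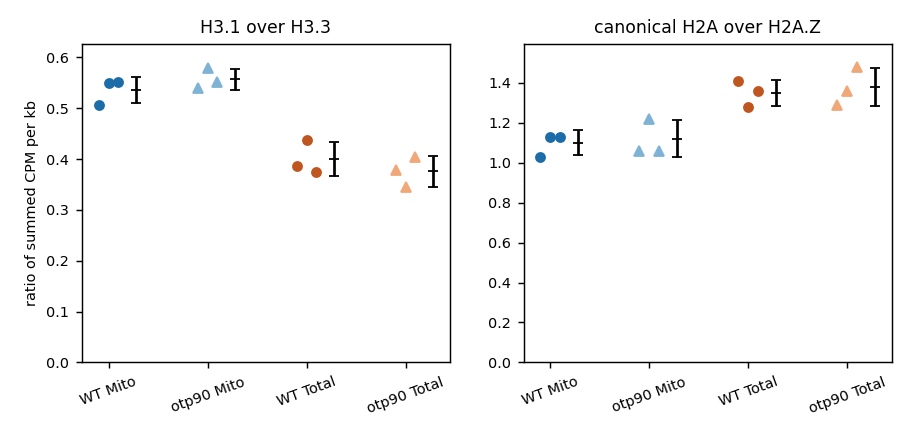
The ratio of summed CPM per kilobase is plotted for each library, H3.1 over H3.3 on the left and canonical H2A over H2A.Z on the right, with the mean and SD of the 3 libraries beside the points. The first ratio is higher in all 6 Mito than in all 6 Total libraries and the second is lower.

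Markers of dividing cells were higher in Mito. All 6 of these markers (CYCB1;1, CYCB1;2, KNOLLE, CDKB1;1, CDKB2;1 and CDKB2;2) were called higher in Mito in both genotypes. Over all genes the shares called higher were 22.8% in WT and 24.8% in otp90. The medians of the 6 markers were 1.38 and 1.84 on the log2 scale. Their summed level was 17.8 to 20.6 CPM in WT Mito, 19.2 to 20.8 in otp90 Mito, 6.65 to 7.60 in WT Total and 5.56 to 8.24 in otp90 Total, and none was at 0 in a whole group. They are 1367 to 1826 nt long. Of the 3 mesophyll markers, RBCS1A and LHCB1.3 were called lower in Mito in both genotypes and RCA was not. Over all genes 20.9% were called lower in WT and 22.3% in otp90. The part of these differences in the histone ratios was not tested. The H3.1 genes have 1 exon and 723 to 833 nt, and the H3.3 genes have 3 or 4 exons and 818 to 1510 nt.

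Replication-linked and replacement genes overlapped widely as whole classes. Among 25 tested replication-linked genes 9 (36%) were lower in WT Mito and 0 higher, and in otp90 5 (20%) were lower and 5 (20%) higher. Among the 6 replacement genes 2 (33.3%) were lower and 0 higher in WT, and 2 were lower and 2 higher in otp90. Over all genes 20.9% were lower and 22.8% higher in WT, and 22.3% and 24.8% in otp90. Over other short nuclear genes the shares were 36.9% and 7.95% in WT and 38.5% and 8.88% in otp90. The medians of the replication-linked genes were -0.26 in WT and -0.09 in otp90, those of the replacement genes -0.16 and -0.05, which is a log2 difference of -0.11 and -0.05. Restricted to H3.1 and H3.3 the difference was 0.47 and 0.69.

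Of the replacement genes, 2 of the 3 H2A.Z genes had the opposite direction to H3.3 in otp90. HTA11 (AT3G54560, chromosome 3, 20196140 to 20197726) had 6.01, 5.52 and 5.52 CPM in WT Mito, 7.20, 5.17 and 7.59 in otp90 Mito, 3.8, 5.62 and 3.47 in WT Total and 3.77, 4.30 and 3.43 in otp90 Total. WT Total replicate 2 was the 1 Total library within the Mito range. The log2 ratio was 0.81 ± 0.175 in otp90 (adjusted p = 0.00822, edgeR) and 0.40 with an adjusted p of 0.131 in WT, which became 0.59 and 0.0019 without that library. HTA8, with the values given above, was lower in Mito than in Total in WT without overlap (log2 ratio -0.17, not called) and higher in otp90 without overlap, at 0.84 ± 0.234 and an adjusted p of 0.0223 (edgeR). The otp90 call for HTA8 was lost without otp90 Mito replicate 2 or 3 or otp90 Total replicate 1 (adjusted p from 0.0605 to 0.0757). HTA9, which made most of the H2A.Z mRNA, had 27.5, 27.7 and 25.7 CPM in WT Mito, 28.8, 24.5 and 24.5 in otp90 Mito, 26.3, 28.6 and 26.1 in WT Total and 26.8, 26.4 and 24.5 in otp90 Total, with overlap throughout.

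**Figure D4:**
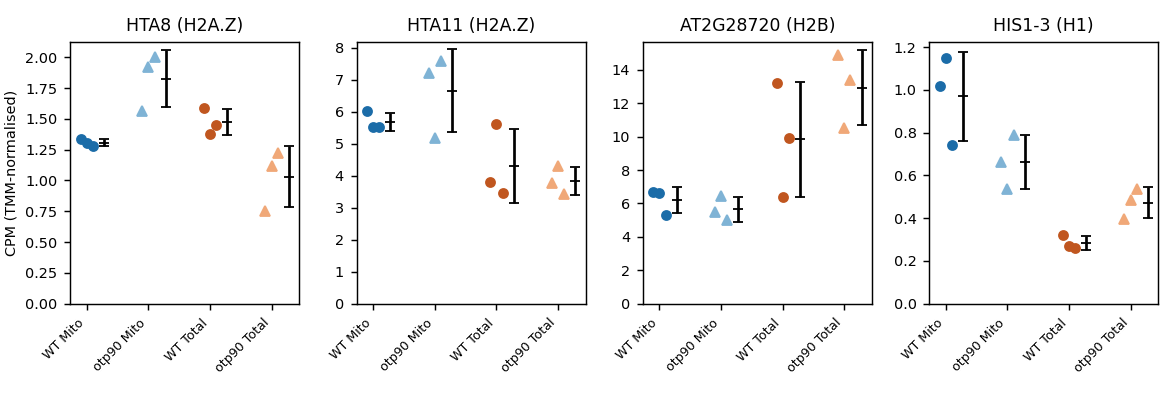
CPM in each library is plotted for HTA8, HTA11, AT2G28720 and HIS1-3 in the 4 groups, with the mean and SD beside the points. HTA8 is higher in Mito than in Total in otp90 and lower in WT, HTA11 and HIS1-3 are highest in Mito groups, and AT2G28720 is highest in Total groups, where WT Total replicate 2 lies low.

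Among H4 genes, 4 of 8 were lower in WT Mito and 1 in otp90 Mito, beside 20.9% and 22.3% of all genes. AT1G07660 (chromosome 1, 2368833 to 2369735) was lower in both, with 4.56, 4.64 and 4.69 CPM in WT Mito, 5.03, 5.20 and 4.80 in otp90 Mito, 7.29, 7.39 and 6.56 in WT Total and 7.07, 7.25 and 7.13 in otp90 Total. The extracts did not overlap, and the log2 ratios were -0.61 ± 0.0954 (adjusted p = 0.00309, edgeR) and -0.50 ± 0.0949 (adjusted p = 0.00478). AT5G59690, the most abundant H4 gene, had 20.4, 21.1 and 19.8 CPM in WT Mito and 26.4, 24.7 and 24.8 in WT Total, at -0.30 with an adjusted p of 0.0205 (edgeR). In otp90 its ranges overlapped, with 23.0, 20 and 20 CPM in Mito and 21.9, 22.2 and 25.1 in Total. Without WT Total replicate 2 the H4 genes AT3G46320 and AT3G53730 were called lower in WT as well, at -0.27 and -0.39 with adjusted p of 0.0421 and 0.0451 (edgeR), where they had been at -0.16 and -0.30. AT5G59970, another H4 gene, was above 0 in both genotypes, at 0.15 and 0.33, and did not pass in either.

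Of 4 tested canonical H2A genes, HTA2 and HTA1 were called lower in WT Mito, beside 20.9% of all genes. HTA2 was called lower in otp90 also (log2 ratios of -0.43 in WT and -0.48 in otp90), beside 22.3% of all genes. In otp90 HTA13 was called higher at 0.35, beside 24.8% of all genes. HTA13 lost this call in DESeq2 (adjusted p = 0.0838) and without any 1 of 5 of the 6 libraries (0.0526 to 0.110, edgeR). HTA10 was at -0.26 in WT and did not pass, but was called without WT Total replicate 2, at -0.25 with an adjusted p of 0.0288 (edgeR). Of 8 tested H2B genes, 3 were lower in WT (HTB4, HTB9 and HTB11, from -0.35 to -0.30), beside 20.9% of all genes. In otp90 3 were lower (HTB9, HTB11 and AT2G28720), beside 22.3% of all genes, and HTB1 was higher at 0.32. HTB4, the most abundant H2B gene, had 49.7, 50.4 and 50.4 CPM in WT Mito and 63.5, 66.4 and 62.5 in WT Total, and 52.3, 51.1 and 52.8 against 58.1, 61.3 and 61.5 in otp90. Its extracts did not overlap in either genotype, with adjusted p of 0.0108 and 0.0708 (edgeR). HTB1 had 12.7, 13.0 and 11.7 CPM in WT Mito against 11.2, 9.74 and 11.1 in WT Total, and 12.3, 12.0 and 12.6 against 9.51, 10.9 and 9.36 in otp90, also without overlap, and it lost its otp90 call in DESeq2 (adjusted p = 0.0823).

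AT2G28720 (chromosome 2, 12326808 to 12327808), an H2B gene, showed the largest fall. It had 6.66, 6.64 and 5.32 CPM in WT Mito, 5.47, 6.47 and 4.98 in otp90 Mito, 13.2, 6.36 and 9.93 in WT Total and 14.9, 10.5 and 13.4 in otp90 Total. Only WT Total replicate 2 was within the Mito range. The log2 ratio was -1.18 ± 0.160 in otp90 (adjusted p = 0.00114, edgeR) and -0.66 ± 0.261 in WT (adjusted p = 0.0806), which became -0.95 and 0.000738 without that library. HTA12, an H2A.W gene, the variant of heterochromatin, was likewise lower in Mito in otp90, with 1.55, 1.56 and 1.54 CPM in WT Mito, 2.80, 1.52 and 2.47 in WT Total, 2.26, 1.58 and 1.72 in otp90 Mito and 3.70, 3.01 and 3.22 in otp90 Total. Its log2 ratio was -0.82 ± 0.174 in otp90 (adjusted p = 0.00747, edgeR) and -0.54 in WT (adjusted p = 0.109, or 0.00149 at -0.82 without WT Total replicate 2). The abundant H2A.W gene HTA6 had 11.8, 11.3 and 9.42 CPM in WT Mito, 10.7, 11.8 and 9.93 in WT Total, 11.9, 12.7 and 12.0 in otp90 Mito and 9.28, 10.7 and 10.6 in otp90 Total. It was close to 0 in WT and at 0.27 in otp90, where its groups did not overlap and the adjusted p was 0.0599 (edgeR). HTA7, the remaining H2A.W gene, was called lower in WT Mito at -0.39 (adjusted p = 0.0194, edgeR), beside 20.9% of all genes. In otp90 HTA7 was at -0.24 and did not pass (adjusted p = 0.0842, edgeR). The extracts did not overlap for HTA7 in either genotype.

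HTA5, an H2A.X gene of the variant that is phosphorylated at DNA breaks, had 16, 17.4 and 15.2 CPM in WT Mito, 20.1, 20.5 and 17.8 in WT Total, 16.5, 16 and 17.0 in otp90 Mito and 18.2, 17.7 and 20.6 in otp90 Total. The extracts did not overlap and neither ratio passed (-0.26 and -0.17), the former becoming -0.28 with an adjusted p of 0.0242 (edgeR) without WT Total replicate 2. Of the linker histone genes, AT2G30620 was lower in WT Mito, with 34.9, 36.5 and 35.6 CPM against 44.7, 42.5 and 45 in Total (log2 ratio -0.30 ± 0.0759, adjusted p = 0.0180, edgeR). In otp90 it had 38.7, 38.8 and 39 CPM against 43.4, 45.9 and 41.4, at -0.15, and did not pass. AT1G06760 had 34.0, 36.5 and 34.1 CPM in WT Mito, 36.1, 35.9 and 35.5 in otp90 Mito, 34.3, 37.0 and 37.8 in WT Total and 35.5, 33.9 and 40.4 in otp90 Total, with overlap in both genotypes. HIS1-3 was higher in Mito in WT in the fit without a filter, at 1.76 ± 0.286 (adjusted p = 0.00265, edgeR), and at 0.47 in otp90 (adjusted p = 0.248).

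The Mito over Total ratio of nuclear genes followed their length, so the histone genes were set against genes of similar length. The median log2 ratio of other nuclear genes in WT rose from -0.58 at 600 to 800 nt through -0.36 at 1000 to 1300 nt and 0.06 at 1700 to 2500 nt to 0.78 above 4000 nt. In otp90 it rose likewise, from -0.56 through -0.34 and 0.06 to 0.75. The 14 tested histone genes of 600 to 800 nt had medians of -0.07 in WT and 0.08 in otp90, and the 13 of 800 to 1000 nt had -0.17 and 0.02, beside -0.47 and -0.40 in other genes of that length. At 1300 to 1700 nt the 4 histone genes had medians of -0.32 and -0.27, below the -0.18 and -0.17 of 3125 and 3102 other genes. At 600 to 1000 nt the histone medians were thus above those of other genes of their length in both genotypes.

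**Figure D5:**
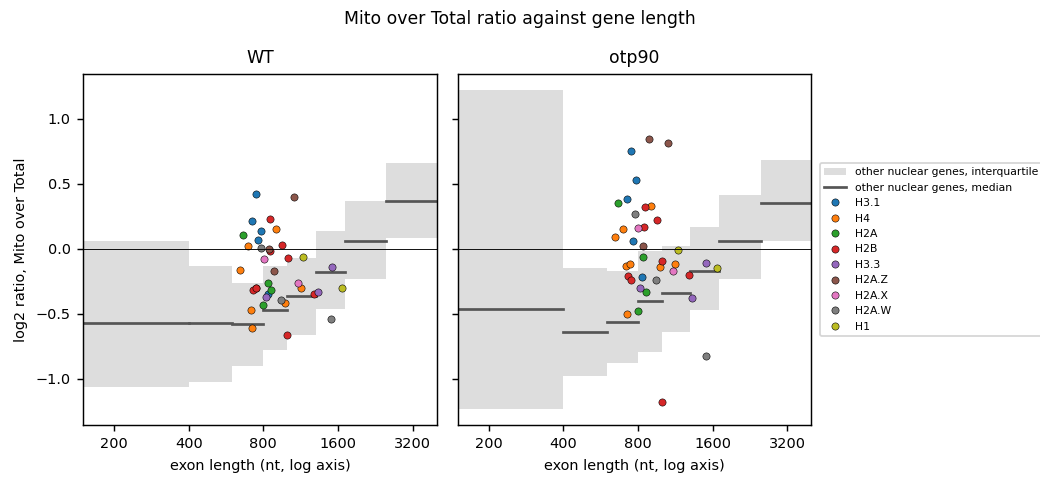
The log2 ratio of Mito over Total is plotted against exon length on a log axis, for WT on the left and otp90 on the right. Points are the 38 tested histone genes coloured by class, and grey steps give the median and the interquartile range of the other nuclear genes in each length bin. Most points between 600 and 1000 nt lie above the median of the other genes.

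Gene by gene, 32 of 38 members in WT and 34 of 38 in otp90 had a ratio above the median of the nuclear genes within 50 nt of their length. A member had on median a higher ratio than 69.75% of these genes in WT and 73.65% in otp90. The H3.1 genes AT5G10390, AT5G65360 and AT5G10400 were above 92.0%, 89.2% and 88.8% in WT and above 94.0%, 91.6% and 94.2% in otp90. HTA11 was above 92.8% and 95.3%. The H3.3 genes were near the middle of theirs, at 64.9% for AT5G10980, 45.1% for AT4G40030 and 54.2% for AT4G40040 in WT and at 61.9%, 40.1% and 54.4% in otp90. The lowest places were those of HTA12 (18.7% and 8.9%) and AT2G28720 (29.2% and 7.1%).

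Against all 6443 other tested nuclear genes of at most 1666 nt, whose median was -0.31, the histone median was higher by 0.09 in WT, and by 0.19 in otp90. The length bin of 1300 to 1700 nt alone holds 3125 other genes in WT and 4 histone genes. Within 50 nt of each length the median difference was 0.26 and 0.38, and at no more than 700 nt it was 0.61 and 0.75, from only 3 histone genes (HTA13, AT3G45930 and AT3G46320), of which the last 2 share counts. The ratio also differed by number of exons, counted after overlapping exons were merged. Among protein-coding genes of 500 to 1000 nt, those with 1 exon had a median of -0.35 in WT and those with more had -0.55. The medians of 16 and 11 histone genes were 0.00 and -0.26. In otp90 the other genes had -0.33 and -0.51, beside 0.12 and -0.06 for the histone genes. At 1000 to 1666 nt those with 1 exon had -0.02 in WT and -0.01 in otp90, above the -0.33 and -0.16 of 4 histone genes, and those with more had -0.27 in either genotype, beside -0.26 and -0.15 for 7 histone genes. Restricted to single-exon genes of at most 1666 nt, the histone median was higher by 0.02 in WT and by 0.11 in otp90. Of the other short nuclear genes 2375 (36.9%) were called lower and 512 (7.95%) higher in WT, beside 34.2% and 0% of the histone genes. In otp90 2456 (38.5%) were called lower and 567 (8.88%) higher, beside 21.1% and 18.4% of the histone genes.

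Genes that work with histones, in lists of DNA replication and chromatin assembly, also differed between the extracts. Of 17 tested genes of DNA replication, 13 were higher in WT Mito and 14 in otp90 Mito, with none lower, beside 22.8% and 24.8% higher over all genes and 32.6% and 35.1% over nuclear genes longer than 1666 nt. ICU2, the catalytic subunit of DNA polymerase alpha, was the highest at 1.46 and 1.85, and RNR2A, a subunit of ribonucleotide reductase, the lowest at -0.20 and 0.01, neither of the latter called. Of 17 genes of chromatin assembly, 7 (41.2%) were higher and 1 lower in each genotype, beside the same percentages higher. PIE1, of the complex that exchanges H2A for H2A.Z, was the highest in WT at 1.15 (adjusted p = 0.000617, edgeR) and DDM1, a chromatin remodeler, in otp90 at 1.32 (adjusted p = 0.00294). The lowest was SWC6, of the same exchange complex as PIE1, at -0.58 and -0.46, which did not pass. These genes are longer than the histone genes, with medians of 2454.5 nt for DNA replication and 1809.0 nt for chromatin assembly. Neither list held a gene that was called in otp90 against WT.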

How the data were processed

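Stranded libraries depleted of ribosomal RNA had been read single-end. The deposited values are raw counts per gene. The authors used featureCounts 1.6.3 (named in the file headers) to count exon reads by strand, multi-mapping ones too. In the study's methods STAR aligned the reads to the Arabidopsis genome of EnsemblGenomes, with its mitochondrial genome replaced by that of Col-0. Introns were not opened, so reads across exon junctions can be lost, which affects genes with several exons. The tables' other column used, as deposited by the authors, is gene length.

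The tests were those of edgeR 4.0.16 (R 4.3.3), with TMM factors, glmQLFit and glmQLFTest. Genes over 1 CPM in at least 3 libraries of a fit were tested, with Benjamini-Hochberg adjustment over all genes tested and a threshold of 0.05. Genotypes were compared within each extract, and extracts within each genotype, from 6 libraries, and the interaction from 12. Standard errors were back-calculated from the F statistic. DESeq2 1.42.0, other scalings, other filters, a replicate block and leaving out each library were alternatives. The fits were tested on simulated data. A floor of 3 counts is 0.0925 to 0.1217 CPM in Mito and 0.0496 to 0.0607 CPM in Total libraries, for counting error only. No pair of replicates agreed within sampling noise. The labels do not say that replicates came from separate plants beyond calling them biological, so p-values measure the spread between these libraries.

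Same-numbered Mito libraries of the 2 genotypes deviated together from their group means (correlations of 0.403, 0.386 and 0.107 over 16825 genes), a pairing taken from the labels' numbers. No histone gene was called there with this replicate block either. Comparisons of other groups did not pair.

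The text gives library values for the most abundant gene of each class, all H3.3, H2A.Z and H1 genes, the 3 largest rises and falls in each comparison of extracts, and the 2 smallest p-values in each of genotypes. The members and lists were chosen with earlier results of these data known. Sequences are from RefSeq, TAIR10.1. Of several annotated proteins the one of the length most common in its class was used.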

Additional observations from a re-analysis of the deposited data

How the results depend on the processing

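The counts of called histone genes were 0 for both genotype comparisons and the interaction under every alternative run. For Mito against Total in WT, 13 calls became 4 with the replicate block and ranged from 1 to 23 when single libraries were left out. For otp90 15 calls ranged from 8 to 17 and became 26 with library size alone as the scaling, 25 of them higher. With that scaling the median log2 ratio of all genes in otp90 was 0.47. The block gave 11 calls in otp90, and the numbers did not pair the extracts (correlations from -0.252 to 0.164), as they did not pair Total libraries (from -0.434 to 0.268). The excess of the histone median over other short nuclear genes, 0.09 in WT, was 0.61 at up to 700 nt, 0.26 within 50 nt of each length, 0.02 with single-exon genes and 0.15 over 5 CPM, and 0.06 to 0.16 without single libraries. In otp90, 0.19 became 0.75, 0.38, 0.11 and 0.23, and 0.18 to 0.26. Replication-linked less replacement genes, -0.11 in WT, was 0.47 for H3.1 against H3.3 and 0.23 for H3.1 with canonical H2A, and -0.17 to -0.02 without single libraries. In otp90, -0.05 became 0.69 and 0.11, and -0.08 to 0.03. Each of these values follows from the genes or libraries left in. The cause of the lost calls was not tested, and the shares of all genes called under these alternatives are not given here.

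With library size alone, 16 of the 37 ratios that were called or named by rule changed sign, 12 in WT and 4 in otp90. In WT they became 0.06 for AT1G07820, 0.01 for HIS4 (AT2G28740), 0.18 for AT5G59690, 0.15 for AT4G40030, 0.10 for AT5G10980, 0.06 for HTA2, 0.15 for HTA1, 0.09 for HTA7, 0.12 for HTB4, 0.16 for HTB9, 0.17 for HTB11 and 0.18 for AT2G30620. In otp90 they became 0.07 for AT4G40030, 0.15 for AT5G10980, 0.24 for HTB9 and 0.21 for HTB11. Genes under 1 CPM (AT3G09480, AT5G02570 and HIS1-3) are limited by depth.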

Other observations

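Of 8 further histone genes that are not among the 41 (CENH3, HTR11, HTA4, MGH3, AT1G13370, AT1G75600, AT5G12910 and AT1G08170), none reached the filter in the comparisons of Mito with Total. CENH3, the centromeric H3, had log2 ratios of 0.13 (WT) and 0.62 (otp90) in a fit without a filter, with adjusted p of 0.721 and 0.103 (edgeR).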
